A study of Mus musculus with 6 samples.

Results

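The Arp2/3 complex is the machine that starts a new actin filament on the side of an older one. Its subunits are studied here through 9 mouse genes, Actr2, Actr3, Arpc1a, Arpc1b, Arpc2, Arpc3, Arpc4, Arpc5 and Arpc5l, out of 54532 gene IDs measured in mammary tumors. The family was chosen by the rise of Arpc1b between the treatment groups, which came with little spread within either group, so the values of Arpc1b are given as a description and no test of them is reported. The question was whether the rest of the complex followed it. All 9 genes were protein-coding, were matched by symbol to a single Ensembl ID, and passed the filter on low values (a mean of at least 0.5 FPKM, a fragment count corrected for exon length and sequencing depth), as did 15069 genes in all.

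The tumors came from NeuT/ATTAC mice, which carry 2 transgenes on the FVB strain. MMTV-NeuT (line FVB-Tg(MMTV-Erbb2)NK1Mul/J) expresses Erbb2 from a promoter active in mammary epithelium, and FAT-ATTAC, moved from C57BL/6, makes fat cells sensitive to the dimerizer AP20187. Starting at 6 weeks of age, both groups were given AP20187 at 0.4 mg/kg to induce fibrosis, at intervals that the labels and the methods state differently. From 8 weeks they received 100 μg of an isotype-matched IgG or of anti-PD-1 mAb 2 times per week, and 3 libraries per group were sequenced. There was thus no group without AP20187 or without an antibody, and the age at tumor collection is not in the labels. A figure legend of the study describes pooled RNA, whereas the labels list separate replicates and the values differ between them. It is thus not settled whether each library was 1 mouse, and p-values measure the spread between libraries. Below, a tumor means 1 such library.

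The labelled tissue was checked against its markers. The luminal epithelial genes Epcam, Krt8 and Krt18 lay between 431 and 1385 FPKM in every tumor, and Erbb2 lay between 20.3 and 23.2 FPKM in IgG tumors and between 25.2 and 31.4 FPKM in anti-PD-1 tumors, without overlap. Markers of fat cells summed to between 1.78 and 6.96 FPKM. In a bulk tumor, fewer cells of a type and less RNA per cell cannot be told apart, and this holds for each subunit below.

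Arp2 and Arp3, encoded by Actr2 and Actr3, are actin-related proteins that pair up to imitate the growing end of a filament. Arpc2 and Arpc4 form the core that grips the mother filament, Arpc3 sits beside Arp3, and Arpc5 ties Arp2 and Arpc1 to the core. Arpc1 is a beta-propeller protein at the contact with the mother filament and with the WASP and WAVE activators. A single complex holds 7 subunits, since Arpc1a and Arpc1b occupy one place and Arpc5 and Arpc5l another. The complex builds the branched networks of lamellipodia, phagocytic cups and endosomes, and Arpc1b is the form best known from blood cells.

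Arpc1a and Arpc1b are neighbours on chromosome 5. In GRCm38, Arpc1a (ENSMUSG00000029621) spans chr5:145083830-145108761 and Arpc1b (ENSMUSG00000029622) spans chr5:145114215-145130705, both on the plus strand, with starts 30.4 kb apart. As this pair of neighbours fills 1 place in the complex, 209 bases before the first annotated exon of each are shown. They are from RefSeq on GRCm38.p6, plus strand, 5′ to 3′, and those of Arpc1a end just short of the exon. The windows are chr5:145083619-145083827 and chr5:145114006-145114214. Capitals mark GC boxes, read as GGGCGG on either strand.
Arpc1a: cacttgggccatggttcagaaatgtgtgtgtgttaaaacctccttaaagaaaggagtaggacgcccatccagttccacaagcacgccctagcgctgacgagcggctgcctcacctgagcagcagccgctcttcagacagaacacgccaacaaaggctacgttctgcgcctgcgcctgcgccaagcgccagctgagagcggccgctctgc
Arpc1b: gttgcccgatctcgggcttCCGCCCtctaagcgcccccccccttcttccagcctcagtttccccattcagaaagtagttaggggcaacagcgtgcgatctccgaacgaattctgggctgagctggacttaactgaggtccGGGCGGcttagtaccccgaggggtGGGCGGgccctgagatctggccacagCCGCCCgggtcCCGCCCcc
The Arpc1b window held 5 GC boxes and was 65.1% G and C with 15 CG pairs, while the Arpc1a window held none and was 59.3% G and C with 14 CG pairs. The comparison used the first 209 bases of each of 32851 RefSeq promoter windows, not aligned to the first annotated exon. Of these, 26.5% held at least 1 GC box and 0.919% held 5 or more. The median window was 51.7% G and C with 4 CG pairs. Neither window contained TATAAA (9.51% of windows), CCAAT (29.8%), the ETS motif CCGGAAG (4.40%), the AP-1 motif TGANTCA (5.82%) or a CArG box (1.22%), each searched on both strands. These are matches of letters, with no measurement of binding.

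Arpc1b stood at 44.0, 42.0 and 43.3 FPKM in the IgG tumors (replicates 1 to 3, the order used throughout) and at 76.5, 79.5 and 83.2 FPKM in the anti-PD-1 tumors. The groups did not overlap, and the means were 43.1 ± 1.01 and 79.7 ± 3.35 FPKM (SD, n = 3), a 1.85-fold ratio. On the log2(FPKM + 1) scale the difference was 0.88 with a standard error of 0.14, and 2.77% of all genes tested had a difference at least as high. Its standard deviation within groups was 0.0467 on that scale, against a median of 0.275 over all genes, and 0.305% of genes had a smaller one. Arpc1b was chosen for this rise and small spread, so both shares restate the choice and test nothing. The Arpc1b values rested on 4953 to 10108 recovered reads per tumor.

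Some reads on Arpc1b cannot be assigned with certainty. Of its exon bases, 931 (18.2%) are shared with Pdap1, a gene on the opposite strand, and the strand setting of the counting is not given in the sources used here. Pdap1 was at 18.8, 14.5 and 17.9 FPKM in IgG tumors and at 27.9, 22.0 and 20.5 FPKM in anti-PD-1 tumors, so its groups did not overlap either. In limma, a linear model fitted across all genes, the difference for Pdap1 was 0.44 in log2 (adjusted p = 0.400). Pdap1 carried 1830 to 3751 reads, fewer than Arpc1b in each tumor. Processed pseudogenes resembling the subunits were low, and the highest, a copy of Arpc5, reached 0.606 FPKM.

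Arpc1a is the alternative occupant of the same place. It stood at 36.7, 44.8 and 46.1 FPKM in IgG tumors and at 41.3, 45.5 and 39.2 FPKM in anti-PD-1 tumors. The groups overlapped throughout, with means of 42.5 ± 5.13 and 42.0 ± 3.21 FPKM (SD, n = 3). The log2 difference was -0.01 with a standard error of 0.16 and a 95% interval from -0.38 to 0.36 (limma adjusted p = 0.987), and the exact permutation test, which cannot go below 0.1 with 3 against 3, gave p = 0.9.

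**Figure D1:**
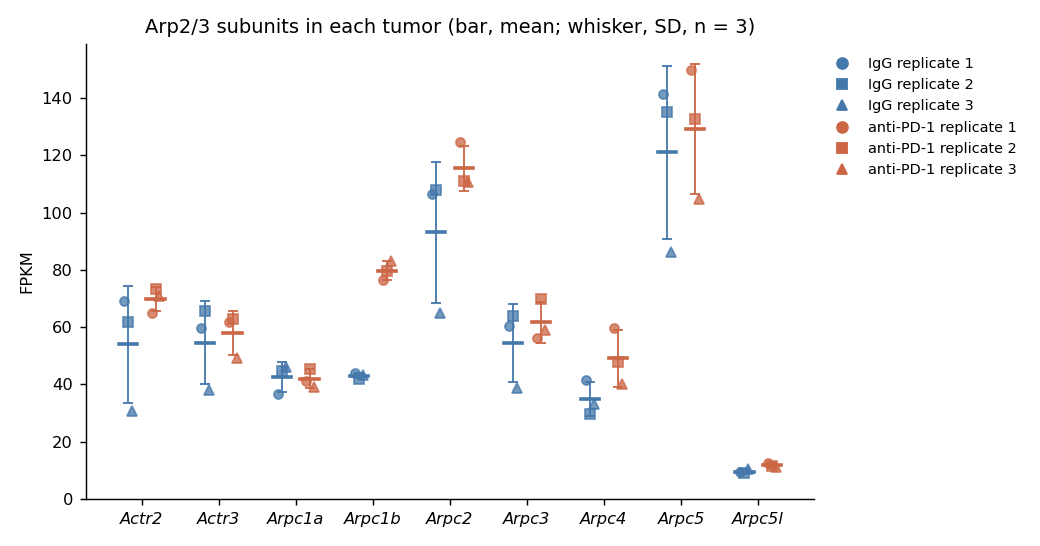
FPKM of each Arp2/3 subunit in each tumor, with a point per tumor, short bars for group means and whiskers for the SD (n = 3). Arpc1b separates the groups, at 42.0 to 44.0 against 76.5 to 83.2 FPKM, while IgG replicate 3 is the lowest tumor for 5 subunits.

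Arpc1b made up more of the Arpc1 place in anti-PD-1 tumors. It supplied 54.6%, 48.4% and 48.4% of the summed Arpc1a and Arpc1b FPKM in IgG tumors, and 65.0%, 63.6% and 68.0% in anti-PD-1 tumors. The means were 50.4 ± 3.56% and 65.5 ± 2.24% (SD, n = 3), a difference of 15.1 percentage points that is a description, since it contains Arpc1b. Counted in reads instead of per length, the mean shares were 66.9% and 79.1%. The sum of both genes was 80.7, 86.8 and 89.4 FPKM in IgG tumors and 117.8, 125 and 122 FPKM in anti-PD-1 tumors.

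The other pair of alternatives was Arpc5 and Arpc5l. Arpc5 (chr1:152766542-152775597) had the highest mean FPKM of the family, at 142, 135 and 86.4 in IgG tumors and 149.8, 133 and 105 in anti-PD-1 tumors. In anti-PD-1 replicate 3, Arpc2 was higher. The Arpc5 groups overlapped, and the log2 difference was 0.11 with a standard error of 0.25 (95% interval -0.47 to 0.70, limma adjusted p = 0.873). Arpc5l (chr2:39005348-39015877) had the lowest, at 9.25, 9.09 and 10.3 FPKM in IgG tumors and 12.7, 11.4 and 11.1 FPKM in anti-PD-1 tumors. All 3 anti-PD-1 tumors lay above all IgG tumors for Arpc5l, with means of 9.55 ± 0.658 and 11.7 ± 0.856 FPKM (SD, n = 3). The Arpc5l difference of 0.28 in log2 with a standard error of 0.14 (95% interval -0.06 to 0.61) did not pass the test (limma p = 0.0948, adjusted p = 0.468), and the exact permutation p was 0.1, the smallest possible. Its spread within groups, 0.0929 in log2, was the next smallest in the family after Arpc1b.

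Arpc5l made up 6.14%, 6.30% and 10.7% of the Arpc5 and Arpc5l sum in IgG tumors and 7.82%, 7.90% and 9.58% in anti-PD-1 tumors. The mean shares were 7.70% and 8.43% on this scale, 14.1% and 15.4% in reads, and 18.9% and 20.6% per principal transcript length, so the level depends on the length used. The FPKM shares overlapped, and the difference of 0.74 percentage points had an exact permutation p of 0.6 (two-sided). IgG replicate 3, where Arpc5 was low and Arpc5l was not, held the highest share. The direction also turned, to -0.0415 points, when IgG replicate 1 was left out.

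**Figure D2:**
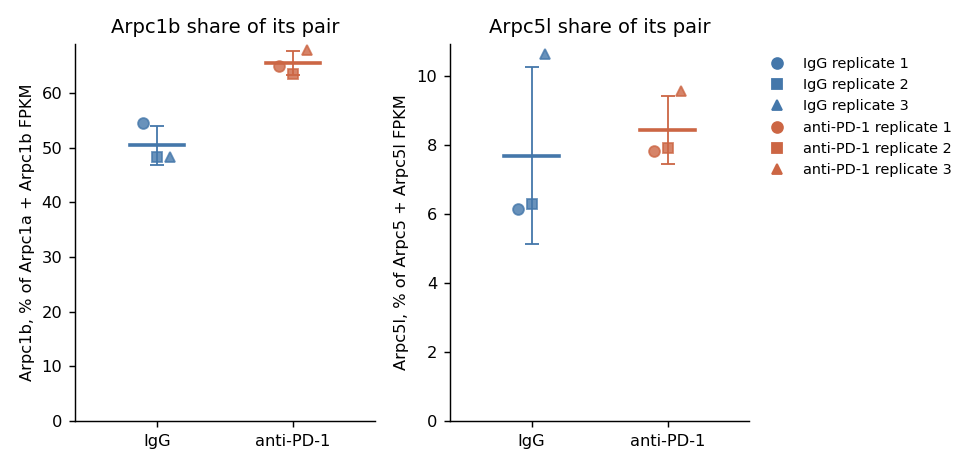
Percent of summed FPKM supplied by Arpc1b within the Arpc1 pair and by Arpc5l within the Arpc5 pair, a point per tumor, with short bars for group means and whiskers for the SD (n = 3). The Arpc1b share lies between 48.4% and 54.6% in IgG tumors and between 63.6% and 68.0% in anti-PD-1 tumors, whereas the Arpc5l shares of the groups overlap.

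The core subunits Arpc2 and Arpc4 had higher means after anti-PD-1 without passing the test. Arpc2 (chr1:74236084-74268209) was at 106, 108 and 64.8 FPKM in IgG tumors and at 125, 111 and 111 FPKM in anti-PD-1 tumors. Its groups did not overlap, but IgG replicates 1 and 2 lay just under the anti-PD-1 range, and the log2 difference of 0.35 with a standard error of 0.23 had a limma p of 0.175 (adjusted p = 0.567, exact permutation p = 0.1). Without IgG replicate 3 the Arpc2 difference was 0.11. Arpc4 (chr6:113378115-113390448) was at 41.4, 29.8 and 33.1 FPKM in IgG tumors and at 59.6, 47.7 and 40.0 FPKM in anti-PD-1 tumors, where replicate 3 lay under IgG replicate 1. Its log2 difference was 0.48 with a standard error of 0.21 and a 95% interval from -0.00 to 0.97 (limma p = 0.0503, adjusted p = 0.409, exact permutation p = 0.2). Arpc4 shares 283 exon bases (12.2%) with Ttll3, which reached at most 1.54 FPKM.

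Actr2, Actr3 and Arpc3 overlapped between groups. Actr2 (chr11:20062304-20112913, minus strand) was at 69.3, 61.8 and 30.8 FPKM in IgG tumors and at 65.1, 73.2 and 70.8 FPKM in anti-PD-1 tumors. The lowest value was that of IgG replicate 3, and the log2 difference of 0.45 (standard error 0.30, limma adjusted p = 0.573) was 0.09 without that tumor. Actr3 (chr1:125392905-125435727, minus strand) was at 59.9, 65.8 and 38.2 FPKM in IgG tumors and at 61.7, 62.9 and 49.1 FPKM in anti-PD-1 tumors. Arpc3 (chr5:122391878-122414184) was at 60.6, 63.8 and 38.9 FPKM in IgG tumors and at 56.2, 69.9 and 59.0 FPKM in anti-PD-1 tumors. The log2 differences were 0.12 with a standard error of 0.24 for Actr3 and 0.21 with a standard error of 0.22 for Arpc3, with limma adjusted p-values of 0.867 and 0.730. Actr3b, a paralog of Arp3 at much lower levels, was at 1.14, 3.45 and 1.01 FPKM in IgG tumors and at 0.999, 0.629 and 0.729 FPKM in anti-PD-1 tumors (log2 difference -0.59, limma adjusted p = 0.497).

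Of the 8 subunits other than Arpc1b, 7 had a higher mean in anti-PD-1 tumors, as had 50.8% of all genes tested. None had an unadjusted p under 0.05 in limma, where 12.3% of all genes did (6.22% higher and 6.05% lower), and no gene of the 15069 (0%) had an adjusted p under 0.05. With voom on the recovered reads, 1 gene of all had an adjusted p under 0.05. Arpc4 was under the unadjusted threshold with voom, with no filter on low values, with a replicate block, and without IgG replicate 1 or anti-PD-1 replicate 3. In 2 of the 8, Arpc2 and Arpc5l, the groups did not overlap, against 9.3% of all genes with every anti-PD-1 tumor above every IgG tumor. The median log2 difference of the 8 was 0.24, beside 0.01 over all genes.

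**Figure D3:**
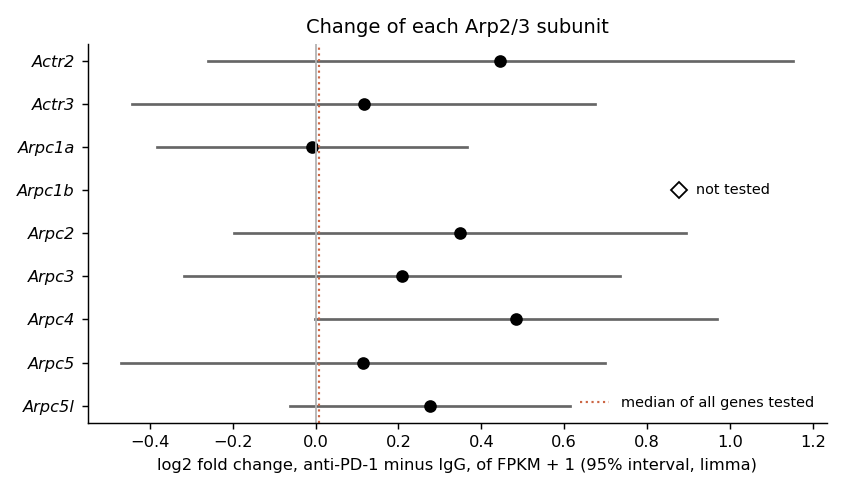
Log2 difference between anti-PD-1 and IgG tumors for each subunit, on the log2(FPKM + 1) scale, with 95% intervals from limma for the 8 subunits other than Arpc1b, which is drawn as an open diamond without an interval, and a dotted line at the median of all genes tested (0.01). All 8 intervals include 0, and the values run from -0.01 for Arpc1a to 0.48 for Arpc4.

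IgG replicate 3 stood low for some subunits and not for others. It was the lowest of the 6 tumors for Arpc2, Arpc3, Arpc5, Actr2 and Actr3, as it was for 20.5% of all genes tested and for 30.4% of those with a mean at or above that of Arpc5l. Relative to the mean of IgG replicates 1 and 2, it held 0.470 times the FPKM for Actr2, 0.604 for Arpc2, 0.608 for Actr3, 0.624 for Arpc5 and 0.626 for Arpc3. The same ratio was 1.01 for Arpc1b, 1.13 for Arpc1a, 1.12 for Arpc5l and 0.931 for Arpc4, and its median over all genes was 0.985. Without IgG replicate 3, the median log2 difference of the 8 subunits was 0.07, and those of Arpc3, Arpc5 and Actr3 were -0.01, -0.11 and -0.12. Arpc4 and Arpc5l, which were not low in that tumor, were then at 0.46 and 0.33.

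The subunits were also compared by their profiles over the 6 tumors. Measured as the root mean square distance between centred log2(FPKM + 1) values, the closest pair was Arpc5 and Actr3 at 0.087, followed by Arpc3 and Actr3 at 0.128 and Arpc2 and Arpc3 at 0.155. These 4 genes were all lowest in IgG replicate 3. Actr2, also lowest there, lay 0.170 from Arpc2, 0.199 from Arpc3, 0.257 from Actr3 and 0.280 from Arpc5. Arpc1b was nearest to Arpc4 (0.302) and Arpc5l (0.317), and lay 0.465 from Arpc1a. Among 12399 protein-coding genes ranked by closeness to Arpc1b, Arpc4 came at 855, Arpc5l at 1047 and Arpc1a at 4984. Arpc1b was chosen for its group difference with little spread, so this ranking largely restates each gene's own difference and spread.

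The protein-coding genes closest to Arpc1b were Smdt1, Adgra3, Ache, Kdm8 and Creb3l1, at distances of 0.0787, 0.0814, 0.0891, 0.0934 and 0.111. Their log2 differences ran from 0.75 to 0.87, so the list restates the contrast by which Arpc1b was chosen. Smdt1, a component of the mitochondrial calcium uniporter, was at 25.0 to 29.6 FPKM in IgG tumors and 46.5 to 56.1 FPKM in anti-PD-1 tumors. Adgra3, an adhesion G protein-coupled receptor, averaged 10.9 ± 1.22 FPKM in IgG tumors (SD, n = 3) and lay at 18.4 to 20.9 FPKM in anti-PD-1 tumors. Creb3l1, a transcription factor of the endoplasmic reticulum membrane, was at 28.1 to 35.7 and 53.1 to 59.3 FPKM. Kdm8, a JmjC-domain hydroxylase, averaged 0.986 FPKM in IgG and 2.36 FPKM in anti-PD-1 tumors. Ache, acetylcholinesterase, averaged 0.286 FPKM in IgG tumors, under the filter of 0.5, and 1.21 FPKM in anti-PD-1 tumors. At such levels the added 1 shrinks the difference, so the closeness of Ache and Kdm8 to Arpc1b holds for this scale and not for the ratio of FPKM. When 0.1 rather than 1 was added, 3 of these 5 genes remained.

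Summed over the family, the FPKM was 569, 560.5 and 392 in IgG tumors and 647, 634 and 568 in anti-PD-1 tumors. Over all genes, the FPKM summed to 300420 in IgG replicate 3 and to between 340004 and 355591 in the other tumors. Without Arpc1b the means of the family sum were 464 ± 100.0 and 537 ± 45.6 FPKM (SD, n = 3), and these groups overlapped. Arpc1b supplied 8.75 ± 1.98% of the sum in IgG tumors and 13.0 ± 1.47% in anti-PD-1 tumors. Ordered by mean FPKM over the 6 tumors, the genes ran Arpc5 (125), Arpc2 (104), Actr2 (61.8), Arpc1b (61.4), Arpc3 (58.1), Actr3 (56.2), Arpc1a (42.3), Arpc4 (41.9) and Arpc5l (10.6). Arpc5 and Arpc2, the neighbours from Actr2 to Actr3, and Arpc1a and Arpc4 differed by less than the larger of their SDs over tumors. Arpc1b lay under Actr2, Actr3 and Arpc3 in the IgG means and above them in the anti-PD-1 means, so its place in the pooled order holds in neither group. The order also depends on the length used, and per principal transcript Arpc3 led with 178 FPKM.

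The genes around Arpc1b were examined next. Within 500 kb on either side, 12 other genes were tested, with log2 differences from -0.09 to 0.44 and a median of 0.06. Of these, 7 had a higher mean after anti-PD-1 and 1, Pdap1, had an unadjusted p under 0.05, beside 6.22% of all genes that were higher at this threshold. The groups did not overlap for 2 of the 12, Pdap1 and Zkscan14, beside 9.3% of all genes. Zkscan14, a zinc finger gene, had a log2 difference of 0.26 (limma adjusted p = 0.575). Chromosome 5 as a whole had a median log2 difference of 0.06. The median was -0.40 on chromosome 4 and -0.36 on chromosome 9, and no subunit lies on either.

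**Figure D4:**
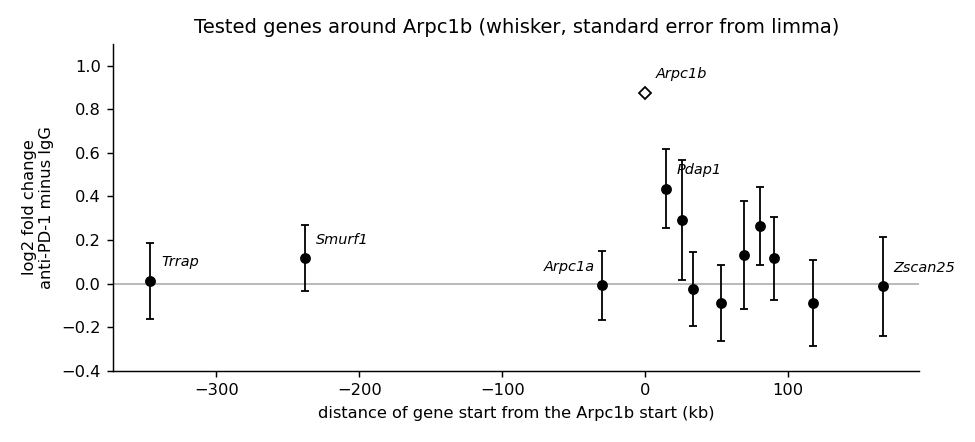
Log2 difference between anti-PD-1 and IgG tumors for the tested genes within 500 kb of Arpc1b, by distance of the gene start from the Arpc1b start in kb, with whiskers for the limma standard error. Arpc1b (open diamond) is at 0.88, Arpc1a at -0.01, and the other genes lie between -0.09 and 0.44.

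The proteins that switch the complex on and off were mixed in direction. Of 42 listed regulators, 38 were tested, and Wasf1, Wasf3, Cyfip2 and Abi3 were under the filter. A higher mean was found for 22 of them, beside 50.8% of all genes. At an unadjusted p under 0.05, 1 was higher and 3 were lower, beside 6.22% and 6.05% of all genes, and their median log2 difference was 0.03. Rhog, a small GTPase that acts upstream of Rac, was at 24.6, 25.0 and 19.4 FPKM in IgG tumors and at 35.9, 32.4 and 39.0 FPKM in anti-PD-1 tumors (log2 difference 0.62, limma adjusted p = 0.344). Its groups did not overlap. Among the 38 regulators, the groups separated completely for 3 with higher values after anti-PD-1, Rhog included, and for 3 with lower values. Of all genes, 9.3% separated in the higher direction.

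Wasf2, the WAVE2 protein that activates the complex downstream of Rac, was at 13.2, 23.6 and 23.9 FPKM in IgG tumors and at 14.9, 10.7 and 10.4 FPKM in anti-PD-1 tumors (log2 difference -0.67, limma adjusted p = 0.388). Nck1, an adaptor that brings N-WASP to phosphorylated receptors, was at 16.1, 28.2 and 22.5 FPKM against 12.5, 10.4 and 11.6 FPKM (-0.86, limma adjusted p = 0.344). Arpin, an inhibitor of the complex, was at 7.26, 10.2 and 11.5 FPKM against 8.85, 3.02 and 2.05 FPKM (-1.08, limma adjusted p = 0.390). The Nck1 groups did not overlap, while those of Wasf2 and Arpin did. The calls of Rhog and Nck1 were kept in all 14 alternatives, while that of Wasf2 was lost in 5 and that of Arpin in 6. Wasf2 lies on chromosome 4 and Nck1 on chromosome 9. The 4 tested regulators on those chromosomes had a median of -0.59, and the other 34 had a median of 0.08 with 1 higher and 1 lower at an unadjusted p under 0.05, beside 6.22% and 6.05% of all genes.

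By list, 7 of 11 WAVE complex genes were tested, with a median of -0.01 and Wasf2 as the lower one. No gene of the WASP family with WIP (5 tested, median -0.07), of the WASH complex (5 tested, median 0.22) or of the other activators (5 tested, median 0.02) had an unadjusted p under 0.05. Upstream GTPases and adaptors (9 tested) had a median of 0.18, and inhibitors and debranching factors (7 tested) one of 0.04.

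A further list held genes for the pool of actin monomers and for filament capping and turnover. Of 14 tested, 3 were higher and 1 was lower at an unadjusted p under 0.05, beside 6.22% and 6.05% of all genes. In 7 of the 14 the anti-PD-1 tumors all lay above the IgG tumors, beside 9.3% of all genes, and the median was 0.24. Tmsb10, a monomer-binding thymosin, was at 286, 220.1 and 141 FPKM in IgG tumors and 446, 424 and 301 FPKM in anti-PD-1 tumors (log2 difference 0.89, limma adjusted p = 0.359). Pfn1, profilin, was at 143, 134 and 117 FPKM against 218, 186 and 168 FPKM (0.53, limma adjusted p = 0.359). Capg, which caps filament ends, was at 80.9, 71.2 and 38.5 FPKM against 123, 82.0 and 133 FPKM (0.86, limma adjusted p = 0.377). Tmsb10, Pfn1 and Capg were also lowest in IgG replicate 3. Cap1, which recycles monomers and lies on chromosome 4, was lower (-0.55, limma adjusted p = 0.393). These unadjusted calls were lost in 2 of 14 alternatives for Tmsb10, 3 for Pfn1, 3 for Capg and 6 for Cap1. The difference of Capg was 0.54 without IgG replicate 3, and that of Pfn1 was 0.35 under quantile normalization.

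Among 12 elongators of unbranched filaments, the formin Fmnl2 had means of 6.39 ± 4.00 FPKM in IgG and 16.1 ± 4.86 FPKM in anti-PD-1 tumors (SD, n = 3), with no overlap (log2 difference 1.31, limma adjusted p = 0.344). Its paralog Fmnl3 had a lower mean (-0.53, limma adjusted p = 0.400), a call lost in 7 of 14 alternatives, while that of Fmnl2 was lost in none of the 14. The 8 other actin-related proteins had a median of 0.03, with none at an unadjusted p under 0.05.

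**Figure D5:**
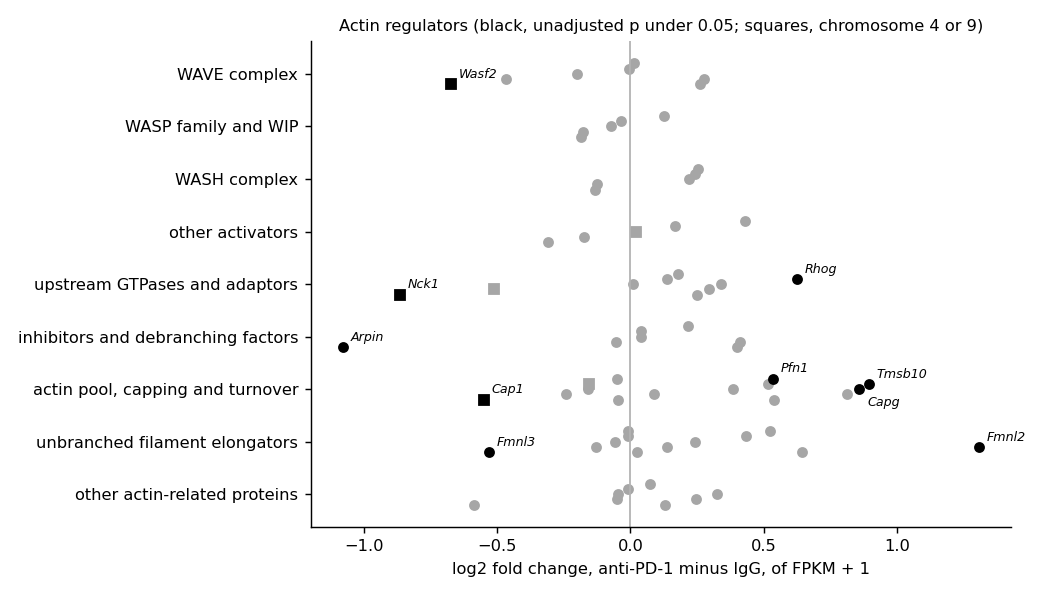
Log2 difference between anti-PD-1 and IgG tumors for each tested regulator and actin gene, a point per gene, by list. Black marks an unadjusted limma p under 0.05 and squares mark chromosomes 4 and 9, and the regulator lists have points on both sides of 0, from Arpin at -1.08 to Rhog at 0.62.

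Markers of the cells that could carry Arp2/3 transcripts moved in part with the groups. Pan-leukocyte genes (6 of 6 tested) summed to between 26.5 and 44.7 FPKM in IgG tumors and between 27.5 and 38.6 FPKM in anti-PD-1 tumors. Macrophage genes summed to 334, 401 and 227 FPKM in IgG tumors and to 460.0, 294 and 473 FPKM in anti-PD-1 tumors, which overlapped. Of the 10, 9 had a higher mean and 1, Cd68, was higher at an unadjusted p under 0.05, beside 50.8% and 6.22% of all genes. Cd68 was at 18.3, 15.2 and 13.8 FPKM in IgG tumors and at 22.1, 30.7 and 29.3 FPKM in anti-PD-1 tumors, without overlap. Luminal epithelial genes summed to between 2224 and 3131 FPKM in IgG tumors and between 3199 and 4074 FPKM in anti-PD-1 tumors without overlap. Of the 8, 6 had a higher mean, none was higher at an unadjusted p under 0.05, and 1, Krt19, was lower, beside 50.8%, 6.22% and 6.05% of all genes. Krt19 was at 7.84, 77.9 and 7.46 FPKM in IgG tumors and at 4.09, 5.27 and 1.70 FPKM in anti-PD-1 tumors, so IgG replicate 2 stood far above the rest. T cell genes, of which 1 of 6 (Lck) passed the filter, summed to 1.92, 5.81 and 2.30 FPKM in IgG tumors and to 1.37, 1.15 and 1.70 FPKM in anti-PD-1 tumors, also without overlap. Platelet genes summed to between 3.53 and 6.44 FPKM in any tumor, and no marker of these lists was at 0 in all tumors. The neutrophil, B cell, basal, fibroblast, endothelial and skeletal muscle sums overlapped between groups. Fibroblast genes summed to 76.5 to 235 FPKM in IgG and 90.6 to 338 FPKM in anti-PD-1 tumors. Skeletal muscle genes summed to 1.56, 136 and 5.31 FPKM in IgG tumors and to 74.8, 148 and 0.612 FPKM in anti-PD-1 tumors. The luminal, macrophage, pan-leukocyte and neutrophil sums were lowest in IgG replicate 3, as 5 subunits were. Erbb2, Cd68 and the luminal sum were higher in every anti-PD-1 tumor, as Arpc1b was, beside 9.3% of all genes. The T cell sum was lower in every one. Log2 differences of the macrophage genes other than Cd68 ran from -0.05 for Cd163 to 0.49 for Mrc1, with 0.01 for Adgre1. The part of these cells in the subunit values was not tested.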

How the data were processed

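RNA from mammary tumors of NeuT/ATTAC mice had been sequenced as 6 libraries, 3 after IgG and 3 after anti-PD-1. Groups and replicate numbers came from the sample labels. By the methods and processing notes, reads were checked with FastQC 0.11.9, trimmed with cutadapt 3.5, aligned to mm10 with Bowtie2 2.4.1 and counted with RSEM 1.3.1, and the authors tested counts with DESeq2 1.36.0. The authors deposited FPKM, 1 file per tumor; how it was computed from the counts is not given in the sources used here.

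IDs were matched to GENCODE M21 on GRCm38 (54409 of 54532). FPKM times merged exon length gave whole reads, within 0.1, for 97.0% to 97.3% of values above 0 per tumor. Over genes with whole reads in all tumors, the recovered reads came to between 21065845 and 23843887 per tumor. The total reads implied by the FPKM scale lay between 22009894 and 25596230. FPKM was divided by median-of-ratios factors (1.00 to 1.01), 1 was added, and log2 was tested with limma 3.58.1 in R 4.3.3 (two-sided, trend, Benjamini-Hochberg adjustment over the 15069 genes whose mean FPKM reached 0.5). Adding 1 shrinks the fold changes of low genes. Single shares were compared by exact permutation in Python 3.11.15 (scipy 1.17.1). Pseudogene copies were searched with blastn 2.17.0 (at least 85% identity over 200 bases). The fit was tested on simulated data.

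The named genes were the subunits, Actr3b, up to 4 genes per regulator list with the smallest unadjusted p under 0.05, and the 5 closest to Arpc1b; Pdap1, Zkscan14, Cd68 and the other markers were named after their values were seen. The family, lists and tests were chosen with earlier results of these data known. Alternatives were 0.1 added, no filter, a filter at a mean FPKM of 2, quantile normalization, no median-of-ratios scaling, no trend, a replicate block, voom on recovered reads and leaving out each tumor, and levels per principal transcript, which was chosen after seeing the data. RefSeq held promoter windows for 8 of the 9 genes. Intervals and p-values cover only the spread between these libraries.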

Additional observations from a re-analysis of the deposited data

How the results depend on the processing

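Arpc1b stayed higher after anti-PD-1 in every alternative run, with log2 differences from 0.74 (quantile normalization) to 0.91. Since the gene was chosen for this rise with little spread, these values are a description and no support for it. Of 112 alternative values for the other 8 subunits, 97 kept their direction and side of the threshold, 5 crossed it, all of Arpc4, and 10 reversed. The count of the other 8 at an unadjusted p under 0.05 was 1 rather than 0 with no filter on low FPKM, with the replicate block and with voom on recovered reads, and 0 to 1 with each tumor left out (1 without IgG replicate 1 or anti-PD-1 replicate 3). Their median log2 difference lay between 0.07 and 0.29 with each tumor left out, and was 0.15 under quantile normalization.

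Arpc5 was at -0.019 and Actr3 at -0.0015 under quantile normalization. Leaving out IgG replicate 3 gave -0.012 for Arpc3, -0.11 for Arpc5, -0.12 for Actr3 and 0.052 for Arpc1a. Arpc1a was at 0.025 without IgG replicate 2, at 0.0017 without anti-PD-1 replicate 1 and at 0.045 without anti-PD-1 replicate 3, and Arpc5 was at -0.00082 without anti-PD-1 replicate 1. With each tumor left out in turn, Arpc1a ran from -0.11 to 0.052, Arpc3 from -0.012 to 0.33, Arpc5 from -0.11 to 0.26 and Actr3 from -0.12 to 0.26. The difference in Arpc5l share ran from -0.0415 (without IgG replicate 1) to 2.22 points and that in Arpc1b share from 13.8 to 17.1 points over the tumors left out. The cause of these changes was not tested.

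Genes of the whole table at an unadjusted p under 0.05 numbered 957 (without IgG replicate 2) to 2687 over the tumors left out, against 1848, and 1156 without anti-PD-1 replicate 3. Those at an adjusted p under 0.05 numbered 0 to 12, with 12 without IgG replicate 1, 1 without IgG replicate 3 or anti-PD-1 replicate 2, and 1 with voom. Regulators at an unadjusted p under 0.05 and higher numbered 2 with no filter, 2 with the replicate block and 1 to 3 over the tumors left out (2 without IgG replicate 1 or 2, 3 without anti-PD-1 replicate 2). Lower ones numbered 1 with the block and 1 to 4 over the tumors left out (1 without IgG replicate 2 or 3 or anti-PD-1 replicate 2 or 3). Of the 5 genes closest to Arpc1b, 3 remained with 0.1 added.

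Whether the replicate numbers pair the tumors is not in the labels, and the reported fit took no pairing. The correlations across genes of same-numbered deviations were -0.164, 0.005 and 0.194, and only replicate 3 correlated best with its own number. Such correlations cannot exclude a shared batch or day. With 3 tumors per group, a difference whose 95% interval includes 0 could not be told from none, and strand and shared reads could not be resolved.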
